A study of Mus musculus with 22 samples.

Results

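Genes that encode classical cadherins, epithelial and mesenchymal surface or filament proteins, and the transcription factors that repress E-cadherin were followed across early mouse lineages: Cdh1, Cdh2, Cdh3, Epcam, Vim, Snai1, Snai2, Zeb1 and Zeb2. They were chosen by symbol and make up 9 of the 21881 symbols in the deposited count table. All 9 were found there.

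The study compared Nanog-null with Nanog-bearing embryos at embryonic day 3.5 (the blastocyst stage) of the mouse and sequenced stem cell lines of the 3 first lineages beside them. The embryos were 4 Nanog-null (2 labelled female, named F1 and F2, and 2 labelled male, M1 and M2), 2 heterozygous and 2 wild type, each of these genotypes with 1 female and 1 male. The lines, all labelled wild type for Nanog, were 2 embryonic stem (ES) lines (female F1, male M2), 3 trophoblast stem (TS) lines (females F1 and F2, male M3) and 2 extraembryonic endoderm (XEN) lines (males M1 and M2), which stand for the epiblast, trophectoderm and primitive endoderm. Each line had 2 libraries, labelled r1 and r2, which were handled as technical replicates. The titles call the ES libraries serum free while naming no medium for TS or XEN. The sources used here do not give the strain, the mutant allele or how each line was derived, and since both XEN lines are male, lineage and sex cannot be fully told apart. Embryo libraries came from amplified cDNA and line libraries from another kit, so the 2 kinds were set side by side but never tested against each other.

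Library totals ranged from 14.8 to 32.2 mega-counts (M) in embryos and from 8.2 to 23.7 M in line libraries. Levels are given as CPM, the counts of a gene per mega-count of its library. The 2 libraries of a line were summed before testing, which gave 17.4 to 37.6 M counts a line. Nanog averaged 0.433 ± 0.153 CPM in null embryos (SD, n = 4) and 96.3 ± 35.0 CPM in Nanog-bearing embryos (n = 4), as labelled. Each lineage's markers had a higher summed level in its own lines than in the other lines: ES markers reached 5910 to 5924 CPM in ES lines, against 448 to 801 CPM in TS lines and 177 to 179 CPM in XEN lines. TS markers summed to 1320 to 3731 CPM in TS lines, with Tfap2c not in the table, and XEN markers to 10822 to 12419 CPM in XEN lines.

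Classical cadherins are calcium-dependent adhesion molecules whose cytoplasmic tails hold catenins and, through them, actin. E-cadherin, the product of Cdh1, compacts the morula and holds the epiblast and trophectoderm together. In an epithelial-mesenchymal transition cells lose E-cadherin and apical junctions and gain vimentin filaments. Factors of the Snail and Zeb families repress Cdh1 in that process by binding E-box motifs, with CACCTG as the preferred form. In the mouse embryo the primitive endoderm gives rise to the parietal endoderm, a migratory cell type, and XEN lines are known for resembling it.

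Epcam and Vim are shown by sequence because one marks the epithelial and the other the mesenchymal state, and Snai1 because its product binds the E-box and is known to act on its own gene. The windows hold the 250 bases before the RefSeq start on GRCm38.p6, 5′ to 3′ on the gene's own strand, with CACCTG, or CAGGTG where it lies on the other strand, in capitals. They lie at chr17:87635729-87635978 for Epcam, chr2:167537945-167538194 for Snai1 and chr2:13574061-13574310 for Vim, all on the plus strand.
Epcam: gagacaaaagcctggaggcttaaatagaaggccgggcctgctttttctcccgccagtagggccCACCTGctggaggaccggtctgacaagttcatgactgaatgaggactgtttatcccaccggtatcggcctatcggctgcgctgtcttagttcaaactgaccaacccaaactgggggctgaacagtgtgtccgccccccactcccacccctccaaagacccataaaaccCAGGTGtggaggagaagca
Snai1: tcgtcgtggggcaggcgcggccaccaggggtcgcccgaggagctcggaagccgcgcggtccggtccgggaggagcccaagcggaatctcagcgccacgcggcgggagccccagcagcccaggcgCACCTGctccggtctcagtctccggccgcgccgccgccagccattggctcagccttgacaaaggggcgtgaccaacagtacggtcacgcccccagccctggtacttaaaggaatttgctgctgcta
Vim: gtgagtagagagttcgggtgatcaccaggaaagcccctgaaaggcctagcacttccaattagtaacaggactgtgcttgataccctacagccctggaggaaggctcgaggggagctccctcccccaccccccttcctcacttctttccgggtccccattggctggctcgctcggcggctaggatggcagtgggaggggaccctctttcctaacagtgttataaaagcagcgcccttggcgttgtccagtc
Epcam held 2 matches, at 187 and 19 bases before the start, Snai1 held 1 at 126 bases before it, and Vim held none. Of all 32851 windows of this length in the table, 17.2% held at least 1 match on either strand and 2.06% held at least 2. In all 4 members had a window, the other being Zeb2, whose windows held no match. A match says only that these letters occur.

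XEN lines carried almost no transcript of the type I classical cadherins Cdh1, Cdh2 and Cdh3. Cdh1, Cdh2, Cdh3 and Epcam were all lower there than in ES and in TS lines, while Vim, Snai1 and Zeb2 were higher there than in both. TS lines stood at the other end, with more Cdh1, Cdh3 and Epcam than ES lines. ES lines combined Cdh1 and Epcam with a Vim level between those of the other lineages. All 9 genes passed the filter on low counts in the lines.

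Tested across all 14687 genes with edgeR's quasi-likelihood test and Benjamini-Hochberg adjustment (threshold 0.05), 4 of the 9 members were called between ES and TS lines, all 4 lower in ES, against 41.3% of all genes called. Between ES and XEN lines 8 of 9 were called, 5 higher and 3 lower in ES, against 45.1% of all genes. Between TS and XEN lines the count was again 8 of 9, 5 higher and 3 lower in TS, against 36.7% of all genes. Both counts against XEN lines include Snai2 among the 5 higher. It had no count in XEN lines and passed the filter only through other lines, so its direction there was fixed in advance. The median log2 fold change of the 9 genes was -0.75 for ES over TS, 2.22 for ES over XEN and 3.89 for TS over XEN (2.85 with Snai2 at its bound), beside -0.02, 0.05 and 0.02 for all genes tested. The 3 comparisons share their lines, so they are not independent of each other. Of all called genes 51.7% were higher in ES than in XEN lines and 55.3% higher in TS than in XEN lines. With upper quartile scaling these shares were 62.6% and 65.9%, and no member changed its direction or call under that scaling.

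**Figure D1:**
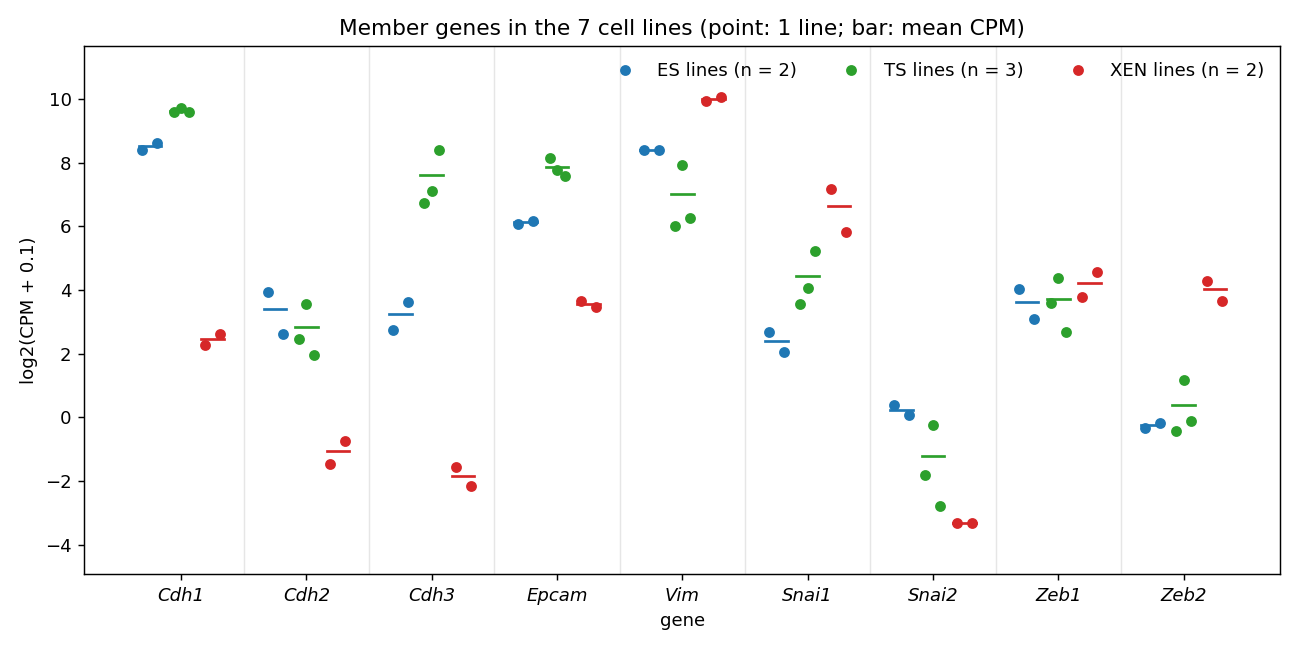
Level of the 9 genes in each of the 7 lines, as log2(CPM + 0.1), with 1 point per line (2 libraries summed) and a bar at the mean CPM of the lineage. XEN points lie lowest for Cdh1, Cdh2, Cdh3, Epcam and Snai2 and highest for Vim, Snai1 and Zeb2, while the Zeb1 points of the 3 lineages overlap.

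Cdh1 (E-cadherin) measured 341 CPM in ES F1 and 396 CPM in ES M2, against 774, 840 and 774 CPM in TS F1, F2 and M3 and 4.70 and 6.03 CPM in XEN M1 and M2. The lineages did not overlap: TS lines were highest, ES lines in the middle and XEN lines far below both. The log2 fold change was 5.76 ± 0.23 for ES over XEN (SE, adjusted p = 1.61e-05) and 6.94 ± 0.24 for TS over XEN (adjusted p = 1.17e-05). For ES over TS it was -1.18 ± 0.17 (adjusted p = 0.00231). Leaving out any single line moved none of these by more than 1.5-fold. The small XEN signal rested on 177 and 194 counts, whose 95% Poisson intervals, which cover counting error only, were 4.03 to 5.45 and 5.21 to 6.94 CPM.

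Cdh2 (N-cadherin, the classical cadherin gained in many mesenchymal cells) was lower in XEN lines than in the other lineages. It measured 15.1 and 6.08 CPM in ES F1 and M2, 5.38, 11.8 and 3.77 CPM in TS F1, F2 and M3, and 0.266 and 0.497 CPM in XEN M1 and M2, the last 2 from 10 and 16 counts. ES and TS lines overlapped and XEN lines were below every other line. Its log2 fold change was 4.46 ± 0.79 for ES over XEN (adjusted p = 0.00375; 3.62 without ES F1), 3.89 ± 0.75 for TS over XEN (adjusted p = 0.00663) and 0.57 ± 0.61 for ES over TS, which was not called (adjusted p = 0.478). Per kilobase of exon, Cdh1 exceeded Cdh2 in every line, by 25.3- and 72.9-fold in ES F1 and M2, 161-, 79.8- and 230-fold in TS F1, F2 and M3, and 19.8- and 13.6-fold in XEN M1 and M2.

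Cdh3 (P-cadherin, first described in placenta) set the TS lines apart. Its level was 6.60 CPM in ES F1 and 12.3 CPM in ES M2, against 107, 140 and 336 CPM in TS F1, F2 and M3 and 0.239 and 0.124 CPM in XEN M1 and M2, where it rested on 9 and 4 counts. No lineages overlapped, and TS M3 was the highest line. The log2 fold change was 9.76 ± 0.90 for TS over XEN (adjusted p = 0.000303; 9.03 without TS M3), 5.30 ± 0.82 for ES over XEN (adjusted p = 0.00214) and -4.47 ± 0.66 for ES over TS (adjusted p = 0.00226; -3.73 without TS M3). In the TS lines Cdh3 amounted per kilobase to 0.139, 0.168 and 0.439 of Cdh1 in F1, F2 and M3, against 0.0196 and 0.0313 in ES F1 and M2. Cdh3 and Cdh1 lie side by side on chromosome 8 (GENCODE vM21 on GRCm38, chr8:106510891-106557297 and chr8:106603351-106670246).

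Epcam, a surface glycoprotein of epithelial and pluripotent cells, measured 67.2 and 72.3 CPM in ES F1 and M2, 282, 218 and 192 CPM in TS F1, F2 and M3, and 12.6 and 11 CPM in XEN M1 and M2. The order was that of Cdh1, with no overlap between lineages. ES over TS gave a log2 fold change of -1.79 ± 0.20 (adjusted p = 0.0008), ES over XEN 2.22 ± 0.22 (adjusted p = 0.000323) and TS over XEN 4.01 ± 0.23 (adjusted p = 5.61e-05). Its distance to XEN lines was smaller than that of Cdh1, with 4.66-fold for ES over XEN beside 54.2-fold for Cdh1. In XEN lines Epcam exceeded Cdh1 per kilobase, at 6.13 and 5.32 CPM per kb of exon in M1 and M2 beside 1.06 and 1.36 for Cdh1. In ES and TS lines it did not, with 32.6 and 35.1 in ES lines beside 77 and 89.4 for Cdh1.

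Vim, the intermediate filament protein of mesenchymal cells, measured 334 and 336 CPM in ES F1 and M2, 64.7, 245 and 76.3 CPM in TS F1, F2 and M3, and 982 and 1070 CPM in XEN M1 and M2. XEN lines were highest and no lineages overlapped, but TS F2 lay much nearer to the ES lines than the other TS lines did. In log2 units the fold change was -3.29 ± 0.52 for TS over XEN (adjusted p = 0.003; -4.08 without TS F2) and -1.95 ± 0.58 for ES over XEN (adjusted p = 0.0285). The ES against XEN call was lost when any 1 of the 2 ES or 2 XEN lines was left out (adjusted p = 0.0682 to 0.127), where the remaining line is assumed to vary like the other lineages. ES over TS gave 1.34 ± 0.50, which was not called (adjusted p = 0.0681). That difference was called without TS F2 (2.15, adjusted p = 0.00164) and by DESeq2 (adjusted p = 0.0232). Limma voom over the 14 libraries, with line as a block, called it with (adjusted p = 0.0143) or without (adjusted p = 0.0117) a term for r1 against r2. Per kilobase, Cdh1 stood at 0.505 and 0.583 of Vim in ES lines, 5.92, 1.70 and 5.02 times Vim in TS F1, F2 and M3, and 0.00237 and 0.00279 of Vim in XEN lines.

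TS F2 also carried the most fibroblast transcript of the 7 lines. The 10 fibroblast markers summed to 137 CPM in TS F2, against 49.8 CPM in TS F1 and 53.4 CPM in TS M3, 13.5 and 20.2 CPM in ES lines and 14.3 and 14.5 CPM in XEN lines. Col1a1, a fibrillar collagen chain, measured 43.8 CPM in TS F2, against 8.32 and 24.0 CPM in TS F1 and M3. All 10 markers had at least 1 count in TS F2, while Dcn, Lum and Fap were at 0 in both other TS lines. Within TS F2 the sum was 252 CPM in library r1 and 37.5 CPM in library r2, and Vim was 310 CPM and 190 CPM there. In r2 the marker sum thus lay within the 34 to 77 CPM of the other TS libraries, and Vim at 190 CPM was still above their 40.4 to 96.5 CPM. In ES lines Col3a1, Dcn, Lum, Postn and Fap were at 0. The part of fibroblast RNA in the Vim level of TS lines was not tested. Myeloid markers, of which Spi1 was not in the table, summed to 437 to 672 CPM in ES, 243 to 838 CPM in TS and 13.1 to 19.4 CPM in XEN lines. Laptm5 made up most of this in ES and TS lines. The leukocyte gene Ptprc was at 0 in both ES lines and at most at 0.0454 CPM in any TS line. Other markers were present in TS F1, F2 and M3, with Csf1r at 12.2, 30.6 and 88.2 CPM and Cd68 at 34.2, 30.4 and 24.5 CPM. Lyz2 measured 1.04, 12.2 and 0.635 CPM there, and Tyrobp, Fcer1g, Emr1 and Cd14 at most 1.27 CPM. The part of myeloid RNA in TS lines was not tested. The part of either cell type in the Vim level of XEN lines, where Vim was highest, was not tested.

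**Figure D2:**
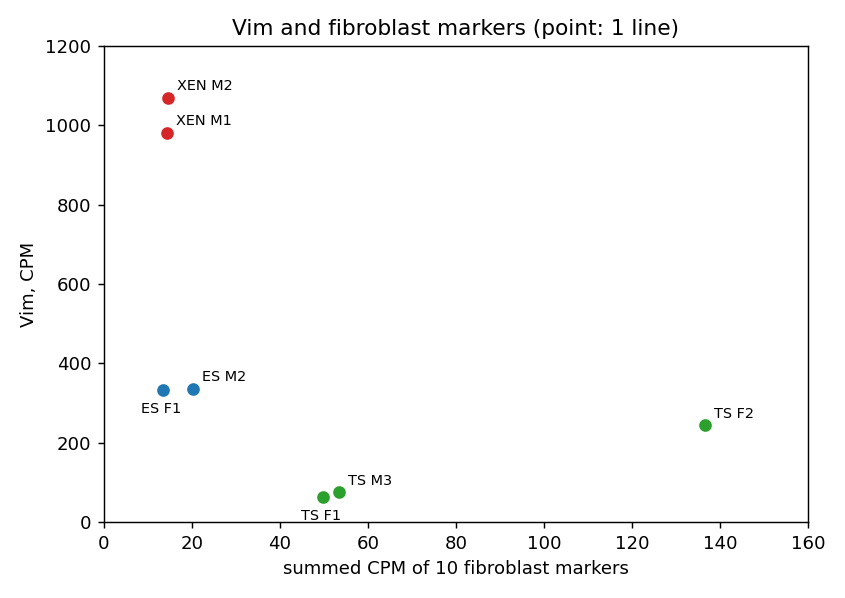
Vim level (y, CPM) against the summed level of 10 fibroblast markers (x, CPM) in the 7 lines, 1 point per line. XEN lines have the highest Vim, 982 and 1070 CPM, at marker sums of 14.3 and 14.5 CPM, and TS F2 stands apart to the right at 137 CPM.

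Snai1, the zinc finger repressor that starts many epithelial-mesenchymal transitions, measured 6.37 and 4.07 CPM in ES F1 and M2, 11.7, 16.8 and 37.0 CPM in TS F1, F2 and M3, and 144 and 57.0 CPM in XEN M1 and M2. The lineages ranked XEN, TS, ES without overlap. The log2 fold change was -4.60 ± 0.75 for ES over XEN (adjusted p = 0.00259; -3.80 without XEN M1), -2.45 ± 0.58 for TS over XEN (adjusted p = 0.015) and -2.16 ± 0.65 for ES over TS (adjusted p = 0.0332). The TS against XEN value was -1.64 without XEN M1 (adjusted p = 0.111), -3.14 without TS M3, and not called without TS F2 (adjusted p = 0.0562). The ES against TS call was lost without ES F1 (adjusted p = 0.108), ES M2 (adjusted p = 0.18) or TS M3 (-1.47, adjusted p = 0.0541), and by limma voom (adjusted p = 0.0803). XEN M1 itself differed between its libraries, at 66.3 CPM in r1 and 190 CPM in r2, while XEN M2 had 56.5 and 57.7 CPM.

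Snai2, the Snail family member of neural crest and other migrating cells, was near the limit of detection. It had 21 and 18 counts in ES F1 and M2 (1.21 and 0.952 CPM), 6, 17 and 1 counts in TS F1, F2 and M3 (0.184, 0.755 and 0.0454 CPM), and none in either XEN line. A count of 0 over both XEN lines allows up to 0.043 CPM at 3 counts over the group. With XEN lines at this bound, Snai2 was 25-fold higher in ES lines (22.2-fold without ES F1). In TS lines it was 7.23-fold higher (2.98-fold without TS F2). These folds take the ES and TS counts without their counting error. Snai2 passed the filter only through ES and TS lines, so its direction against XEN lines was fixed in advance and its calls there are no support. In the fit it was called in both comparisons (adjusted p = 0.0157 for ES and 0.0486 for TS). The first call was lost without any 1 ES or XEN line (adjusted p = 0.0503 to 0.0601). The second was lost by limma voom (adjusted p = 0.0632) and without any 1 of ES F1, ES M2, TS F1, TS F2, XEN M1 or XEN M2 (adjusted p = 0.0654 to 0.146). In TS F2, 15 of its 17 counts came from r1, the library with the most fibroblast transcript. ES over TS was not called (1.69 ± 0.97, adjusted p = 0.205), but was without TS F2 (3.04, adjusted p = 0.0462) and by limma voom (adjusted p = 0.0367, or 0.0298 with a term for r1 against r2).

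Zeb2, a zinc finger and homeodomain repressor of Cdh1, measured 0.689 and 0.793 CPM in ES F1 and M2, 0.642, 2.18 and 0.817 CPM in TS F1, F2 and M3, and 19.6 and 12.6 CPM in XEN M1 and M2. XEN lines were above all others, and ES and TS lines overlapped. Its log2 fold change was -4.77 ± 0.70 for ES over XEN (adjusted p = 0.00169), -4.03 ± 0.57 for TS over XEN (adjusted p = 0.00181; -4.68 without TS F2) and -0.75 ± 0.60 for ES over TS, not called (adjusted p = 0.349; -0.07 without TS F2).

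Its paralog Zeb1 showed no such split. It measured 16.1 and 8.46 CPM in ES F1 and M2, 12.1, 20.6 and 6.35 CPM in TS F1, F2 and M3, and 13.7 and 23.6 CPM in XEN M1 and M2. All 3 lineages overlapped, and none of the comparisons called it (ES over TS -0.12 ± 0.52, adjusted p = 0.865; ES over XEN -0.94 ± 0.57, adjusted p = 0.217; TS over XEN -0.81 ± 0.51, adjusted p = 0.246). Within TS lines F2, the line with the most fibroblast transcript, was the highest for Zeb1, Zeb2, Snai2, Cdh2, Vim and Cdh1. TS M3 was the highest for Snai1 and Cdh3, and TS F1 for Epcam. Whether these ranks are related to the fibroblast markers was not tested.

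**Figure D3:**
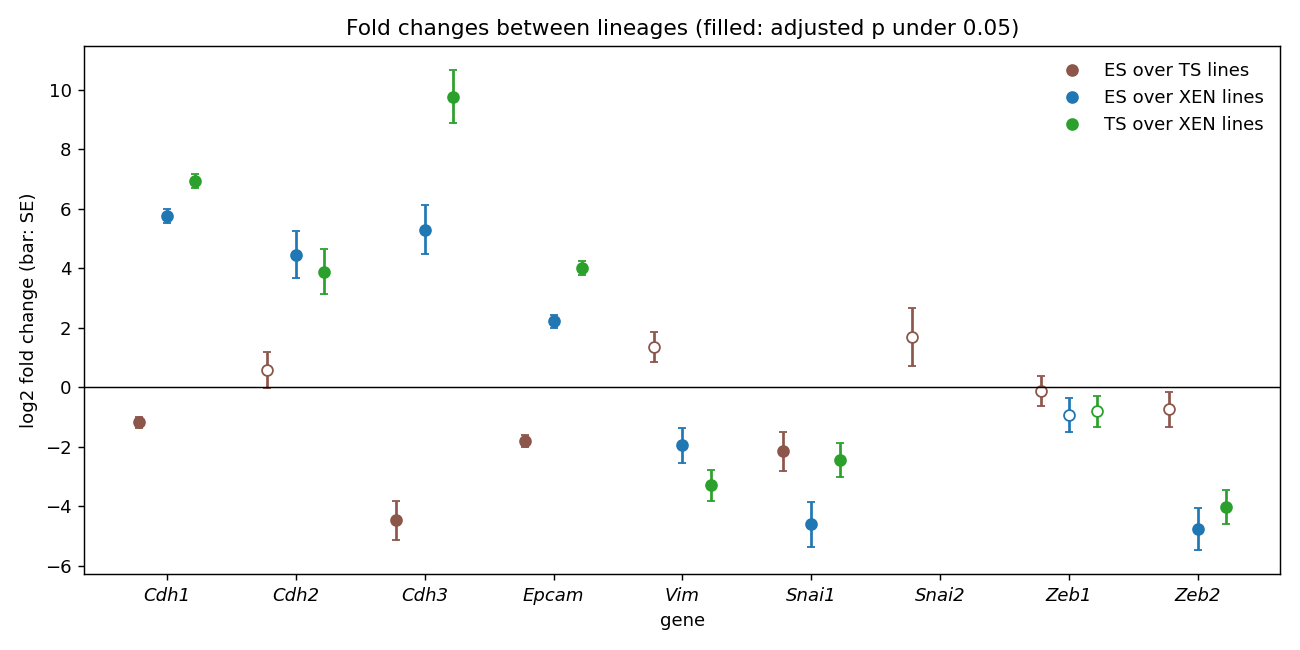
Log2 fold change of each gene between lineages (first named over second), with its SE as the bar, filled where the adjusted p was under 0.05. Snai2 is drawn only for ES over TS, since it had no count in XEN lines. Cdh1, Cdh2, Cdh3 and Epcam lie above 0 and Vim, Snai1 and Zeb2 below 0 in both comparisons with XEN lines.

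The 2 libraries of a line differed for some members. Cdh1 was higher in r1 than in r2 in both XEN lines, 9.02 and 2.15 CPM in M1 (4.19-fold) and 8.45 and 2.29 CPM in M2 (3.69-fold). Epcam was 18.7 and 9.08 CPM in XEN M1 and 14.3 and 5.85 CPM in XEN M2 in the same order. Across the 5 ES and TS lines the ratio between libraries stayed at or below 1.68 for Cdh1 and 1.49 for Epcam. Other members reached higher ratios there, such as 2.65 for Cdh2 in TS M3 and 2.51 for Cdh3 in ES M2. In XEN M1, Snai1 was 2.87-fold higher in r2. These pairs are 1 library each, and neither the differences nor their source were tested.

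The catenins that E-cadherin binds stayed abundant in XEN lines. Ctnnb1 (beta-catenin) measured 900 and 875 CPM in ES lines, 898 to 1053 CPM in TS lines and 726 and 655 CPM in XEN lines, and Ctnna1 (alpha-E-catenin) 409 and 462 CPM, 669 to 766 CPM and 428 and 454 CPM in the same order. Of 12 tested catenin and adherens junction genes, 4 were higher and 3 lower in ES than in XEN lines. Against XEN lines, 4 were higher and 1 lower in TS lines. Of all genes, 45.1% were called between ES and XEN, 36.7% between TS and XEN and 41.3% between ES and TS lines. The counts of this list and of those below stand beside these shares, and no list was tested as a set. Pvrl1 (nectin-1), an immunoglobulin-like adhesion receptor, had 42.4 ± 1.53 CPM in ES lines and 11.7 ± 0.524 CPM in TS lines, against 0.106 ± 0.113 CPM in XEN lines (adjusted p = 0.000134 for ES and 0.000295 for TS). Jup (plakoglobin) was higher in TS lines, at 684 ± 136 CPM, than in XEN lines, at 249 ± 18.7 CPM (adjusted p = 0.00744). The list's median was -0.33 (log2) for ES over XEN and 0.34 for TS over XEN, beside 0.05 and 0.02 for all genes.

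Another cadherin was high where Cdh1, Cdh2 and Cdh3 were low. Cdh6 (K-cadherin, of kidney and other epithelia) measured 0.0574 and 0.370 CPM in ES F1 and M2, 0, 0.622 and 0.0454 CPM in TS F1, F2 and M3, and 54.5 and 76.7 CPM in XEN M1 and M2. The log2 fold change was -8.54 ± 1.31 for ES over XEN (adjusted p = 0.00205) and -8.58 ± 1.08 for TS over XEN (adjusted p = 0.00113). Cdh24, a type II cadherin, was lower in ES lines, at 3.98 ± 0.275 CPM, than in XEN lines, at 12.4 ± 7.09 CPM (adjusted p = 0.0157). It was not called between TS and XEN lines, which overlapped at 6.49, 5.42 and 8.31 CPM in TS F1, F2 and M3 and 17.4 and 7.39 CPM in XEN M1 and M2. Cdh5, the endothelial cadherin, stood at 18.7 and 18.8 CPM in XEN lines and at 107 CPM in TS M3 beside 1.47 and 8.75 CPM in TS F1 and F2, with 1 count in all ES libraries. Cdh11 (OB-cadherin) was present in every line, from 4.08 CPM in TS M3 to 34.5 CPM in XEN M1. Of the 20 cadherin genes beyond the members, 8 passed the filter. Of these, 3 were higher and 3 lower in ES than in XEN lines, and 3 higher and 1 lower in TS than in XEN lines. Between ES and TS lines, 0 were higher and 2 lower in ES. Of all genes 45.1%, 36.7% and 41.3% were called in these comparisons, in that order.

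Desmosomes split in XEN lines. The desmosomal cadherins Dsg2 and Dsc2 were lower there: Dsg2 had 166 ± 35.6 CPM in ES lines and 156 ± 29.2 CPM in TS lines, against 4.49 ± 1.21 CPM in XEN lines (adjusted p = 6.96e-05 for ES and 7.31e-05 for TS). Dsc2 had 45.2 ± 5.64 CPM in TS lines and 0.0932 ± 0.132 CPM in XEN lines (adjusted p = 0.000423). The plaque proteins Dsp (desmoplakin) and Pkp2 were higher in XEN than in ES lines: Dsp averaged 28.8 ± 7.2 CPM in ES lines and 132 ± 64.2 CPM in XEN lines (adjusted p = 0.00165), and Pkp2 20.8 ± 7.47 and 82.2 ± 17.6 CPM in the same order (adjusted p = 0.00134). Of 7 tested desmosome genes, 5 were higher and 0 lower in TS than in XEN lines, 4 higher and 2 lower in ES than in XEN lines, and 0 higher and 5 lower in ES than in TS lines. Perp, a desmosome-associated membrane protein, had the smallest p in TS over XEN, at 324 ± 73.9 CPM in TS lines and 4.68 ± 0.597 CPM in XEN lines (log2 fold change 5.84 ± 0.33, adjusted p = 5.22e-05).

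Most regulators of the epithelial state were higher in TS than in XEN lines. Of 13 tested, 10 were higher and 0 lower in TS than in XEN lines, and 7 higher and 1 lower in ES than in XEN lines. Between ES and TS lines, 0 were higher and 6 lower in ES. The medians were 4.65, 2.70 and -1.52 on the log2 scale, beside 0.02, 0.05 and -0.02 for all genes. Of all genes 36.7%, 45.1% and 41.3% were called, in the same order. Grhl2, a Grainyhead factor known to activate Cdh1, had 7.30 ± 4.04 CPM in ES lines and 34.9 ± 1.62 CPM in TS lines, against 0.277 ± 0.0914 CPM in XEN lines (adjusted p = 0.000661 for ES and 0.000185 for TS). Grhl3 had 22.9 ± 0.849 CPM in ES lines and 63.7 ± 26.5 CPM in TS lines, against 0.0266 ± 0.0376 CPM in XEN lines (adjusted p = 0.000154 and 0.000102). The membrane protease St14 (matriptase) had 169 ± 7.66 CPM in ES lines and 2.84 ± 3.27 CPM in XEN lines (adjusted p = 0.00215). The exception was Esrp2, an epithelial splicing regulator, with 5.97 ± 1.05 CPM in ES lines and 27.2 ± 4.66 CPM in XEN lines (adjusted p = 0.00494).

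Tight junction and polarity genes were mixed against XEN lines and mostly lower in ES than in TS lines. Of 18 tested, 1 was higher and 10 lower in ES than in TS lines, 6 higher and 6 lower in ES than in XEN lines, and 8 higher and 2 lower in TS than in XEN lines. Llgl2, a basolateral polarity protein, had 467 ± 55.9 CPM in TS lines and 75.4 ± 4.14 CPM in XEN lines (adjusted p = 0.00029). F11r (JAM-A), a tight junction adhesion molecule, had 48.6 ± 7.81 CPM in ES lines and 308 ± 67.5 CPM in TS lines (adjusted p = 0.000382), and was lower in ES than in XEN lines too, at 101 ± 4.86 CPM in XEN lines (adjusted p = 0.00363). Ocln (occludin) was lower in TS lines, 6.26 ± 1.78 CPM, than in XEN lines, 21.3 ± 10.5 CPM (adjusted p = 0.00872).

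Genes that mesenchymal cells are known to turn on were not highest in XEN lines as a group. Of 16 tested effector genes, 0 were higher and 12 lower in ES than in TS lines, 1 was higher and 9 lower in ES than in XEN lines, and 6 were higher and 2 lower in TS than in XEN lines. Fibroblast markers also summed higher in TS F1, F2 and M3 (49.8, 137 and 53.4 CPM) than in XEN M1 and M2 (14.3 and 14.5 CPM). The part of fibroblast RNA in these effector counts was not tested. Mmp9, a matrix metalloprotease of invading trophoblast, had 214 ± 81.8 CPM in TS lines and 0.171 ± 0.0216 CPM in XEN lines (adjusted p = 0.000102), and Tpm1 (tropomyosin) 644 ± 63.1 CPM in TS lines and 112 ± 16.8 CPM in XEN lines (adjusted p = 0.000168). Itgb1 and Itga5, the chains of the fibronectin receptor, went the other way: Itgb1 had 428 ± 43.1 CPM in TS lines and 821 ± 29.5 CPM in XEN lines (adjusted p = 0.001), and Itga5 94.0 ± 27.1 and 417 ± 249 CPM in the same order (adjusted p = 0.00637). Among 15 further regulators of mesenchymal fate, 6 were higher and 4 lower in TS than in XEN lines. Against XEN lines, 4 were higher and 2 lower in ES, and against TS lines 2 were higher and 7 lower in ES. Of all genes 36.7%, 45.1% and 41.3% were called, in the same order. The Snail paralog Snai3 had its highest level in TS lines, at 20.8 ± 1.82 CPM, against 1.00 ± 0.526 CPM in ES lines (adjusted p = 0.00066) and 0.0444 ± 0.0252 CPM in XEN lines (adjusted p = 0.000122). Tgfbr2, the type II TGF-beta receptor, had 5.38 ± 0.31 CPM in ES lines and 21.7 ± 0.757 CPM in TS lines, against 43.4 ± 1.18 CPM in XEN lines (adjusted p = 8.32e-05 for ES and 0.00205 for TS).

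**Figure D4:**
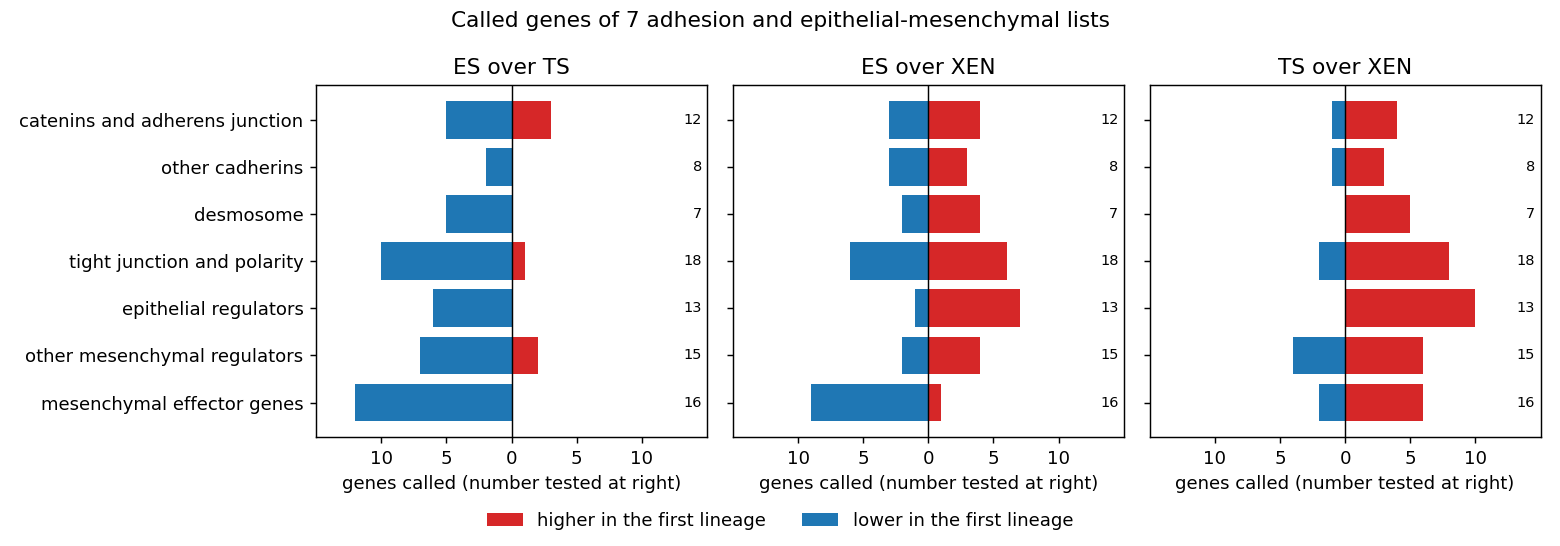
Number of called genes in 7 lists for each pair of lineages, to the right of 0 where the first lineage was higher and to the left where it was lower, with the number tested at the right edge. Epithelial regulators and desmosome genes have no bar to the left in TS over XEN, where 10 of 13 and 5 of 7 were higher.

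The genes with the level pattern most like a member's over the 7 lines were taken from 9328 genes by the root mean square difference of centred log2 CPM. Nearest to Cdh1 were Epb4.1l1 (a band 4.1 cytoskeletal linker, 0.302), Sh3bgrl2 (0.446) and Btbd11 (0.486). Among the 3 nearest to Epcam were Ptpn3 (0.319) and Ahdc1 (0.342). Nearest to Vim were Me1 (malic enzyme, 0.504), Tbc1d24 (0.506) and Pdia5 (0.511), and nearest to Cdh2 were A830080D01Rik (0.412), Nr3c1 (the glucocorticoid receptor, 0.538) and Pcsk6 (a proprotein convertase, 0.545).

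In the embryos Cdh1 and Epcam were abundant in every genotype and Vim and the transcription factors were low. The filter on low counts kept 7 members in the embryos, all but Snai2 and Zeb2. None of the 7 was called between null and Nanog-bearing embryos, where 0.0154% of all 12965 genes were called (2 genes), between null and wild-type embryos (0.0154%), or between heterozygous and wild-type embryos (0%). No member reached an unadjusted p under 0.05 in this edgeR fit in any of the 3 comparisons. In null against Nanog-bearing embryos edgeR gave unadjusted p-values of 0.0407 for Cdh3 and 0.0361 for Epcam without the low-count filter. It gave 0.0472 for Epcam without the sex term and 0.0137 for Cdh1 without null F1, with adjusted p of 0.784 to 0.889. Without null F1 and M2, a setting added after seeing the data, edgeR gave 0.011 for Cdh1 (adjusted p = 0.903). Among the other left-out nulls, 1 member was under 0.05 without null M1 and 2 without null F2, none of them called. Fits without a Nanog-bearing embryo leave 1 embryo in its genotype and are not counted here. DESeq2 and limma voom called none either. At an unadjusted p under 0.05, DESeq2 had Cdh3 and Epcam and limma voom had Cdh3 and Snai1 in null against Nanog-bearing embryos, and both tools had Cdh3 alone in null against wild-type embryos. In whole embryos, fewer cells of a type and less RNA per cell cannot be told apart.

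Cdh1 measured 1260, 508, 615 and 295 CPM in null F1, F2, M1 and M2, against 850 and 955 CPM in the heterozygous female and male and 935 and 1020 CPM in the wild-type female and male. All nulls but 1 lay below all Nanog-bearing embryos and F1 above all of them. In log2 units the fold change was -0.47 ± 0.35 (null over Nanog-bearing, adjusted p = 0.967). The SD over embryos was 416 CPM in nulls and 70.1 CPM in Nanog-bearing embryos.

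Epcam measured 374, 308, 417 and 604 CPM in null F1, F2, M1 and M2, against 333 and 321 CPM in heterozygous and 333 and 216 CPM in wild-type females and males. All nulls but 1 lay above all Nanog-bearing embryos, and F2 among them. The log2 fold change was 0.62 ± 0.30 (unadjusted p = 0.0678, adjusted p = 0.931). Per kilobase Cdh1 stood at 1.57, 0.767, 0.687 and 0.227 times Epcam in null F1, F2, M1 and M2, against 1.19 and 1.39 in heterozygous and 1.31 and 2.20 in wild-type embryos. Cdh1 was thus above Epcam in all 4 Nanog-bearing embryos and in null F1, and below it in the other nulls.

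Cdh3 measured 0.549, 4.39, 0 and 0.350 CPM in null F1, F2, M1 and M2 (9, 96, 0 and 7 counts), against 7.52 and 3.79 CPM in heterozygous and 26.6 and 4.19 CPM in wild-type females and males. Null F2 fell within the Nanog-bearing range and the other nulls below it. Its log2 fold change was -3.34 ± 1.58 (unadjusted p = 0.0605, adjusted p = 0.931; -4.41 without null F2). Against wild-type embryos alone the log2 fold change of nulls was -3.72 ± 1.71 for Cdh3 (-4.91 without null F2), -0.53 ± 0.42 for Cdh1 and 0.75 ± 0.38 for Epcam, none of them called. The 0 in M1 allows up to 0.156 CPM at 3 counts.

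Cdh2 measured 0.061, 0.365, 0 and 5.45 CPM in null F1, F2, M1 and M2, against 11.9 and 0 CPM in heterozygous and 0.127 and 4.75 CPM in wild-type females and males. Snai1 measured 0.183, 0.457, 6.39 and 0 CPM in the same nulls, against 12.2 and 4.94 CPM in heterozygous and 7.74 and 1.21 CPM in wild-type embryos. Cdh2 was spread from 0 to several CPM within each class. Snai1 was under 0.5 CPM in 3 nulls, against at least 1.21 CPM in every Nanog-bearing embryo, but null M1 lay within their range, so the classes overlapped for both genes. The log2 fold change was -2.24 ± 2.40 for Cdh2 and -2.23 ± 2.52 for Snai1 (adjusted p = 0.996 and 0.998). Without null M1 the Snai1 value was -5.59 (unadjusted p = 0.0254, adjusted p = 0.574), and without null F1 it was -0.97.

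Vim stayed at or below 4.94 CPM in all 8 embryos, with 0, 0.959, 0.156 and 1.3 CPM in null F1, F2, M1 and M2, against 4.94 and 0.0677 CPM in heterozygous and 0.508 and 0 CPM in wild-type females and males. Zeb1 measured 0, 0.183, 4.0 and 0.35 CPM in the same nulls, against 0 and 6.5 CPM in heterozygous and 0 and 0.031 CPM in wild-type embryos. Neither gene separated the genotypes (log2 fold change 1.5 ± 3.22 for Vim and 2.75 ± 2.05 for Zeb1, adjusted p = 0.998 and 0.967), and leaving out single embryos gave 1.73 to 4.86 for Zeb1. Zeb2 had 14 counts over the 4 nulls, 8 in F2 and 6 in M2, and 2 counts over the 4 Nanog-bearing embryos. Snai2 had none in nulls and 10 in Nanog-bearing embryos, all in the heterozygous male. Fibroblast markers summed to 2.62, 6.08, 0 and 6.65 CPM in null F1, F2, M1 and M2, against 0.0423 to 3.52 CPM in Nanog-bearing embryos, so the 2 nulls with Zeb2 counts had the highest sums. The part of other cells in these counts was not tested.

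**Figure D5:**
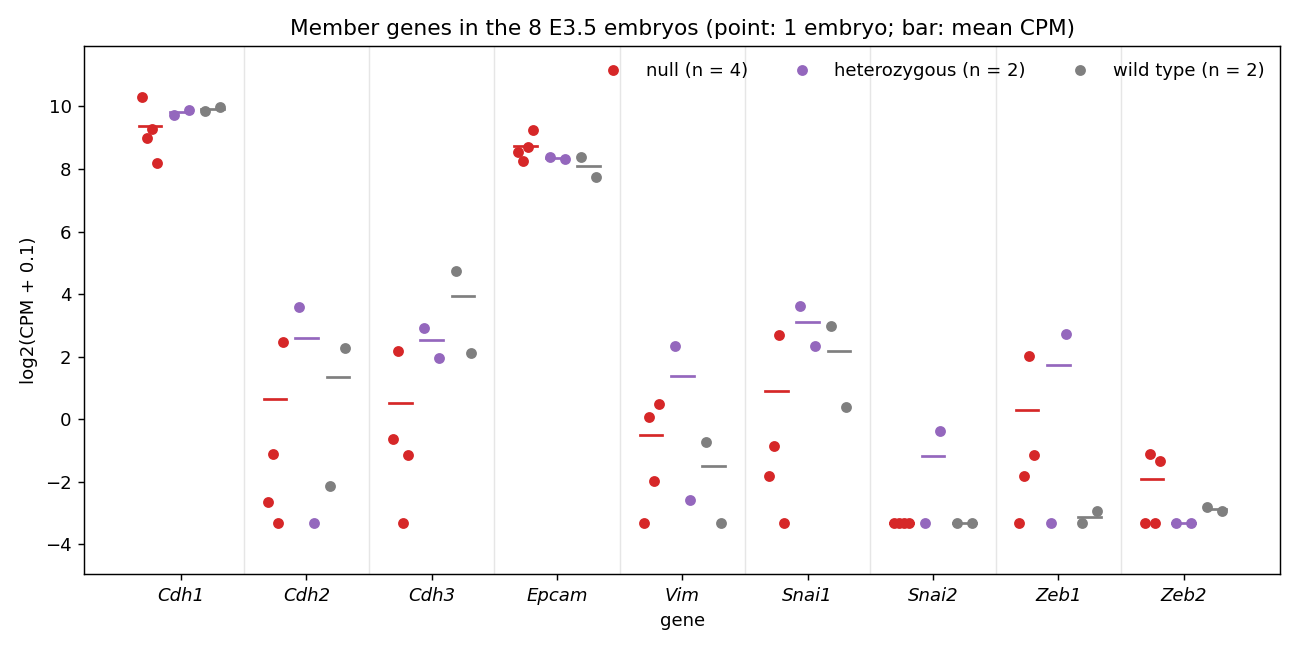
Level of the 9 genes in the 8 embryos, as log2(CPM + 0.1), with 1 point per embryo and a bar at the mean CPM of the genotype. Cdh1 and Epcam lie high in all genotypes, and the other members scatter between 0 and 26.6 CPM within genotypes.

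Per kilobase of exon, Cdh1 ranged from 66.5 to 284 CPM per kb in null embryos and from 192 to 230 CPM per kb in Nanog-bearing embryos, and Epcam from 150 to 293 and from 105 to 162 CPM per kb in the same classes. No other member exceeded 7.50 CPM per kb in any embryo. Null libraries also lacked more genes: 570, 300, 133 and 809 genes in null F1, F2, M1 and M2 stood at up to 3 counts where the mean of the remaining 7 embryos was 5 CPM or more, and Nanog-bearing embryos had 40 to 68 such genes. Cdh3 in null M1 was the only member in that state. The part of this in the members' values was not tested.

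Of the other adhesion genes, no list had a called member in the embryo comparisons, and 0.0154% of all genes were called in null against Nanog-bearing embryos. Desmoplakin, Dsp, averaged 52.4 ± 21.8 CPM in null embryos and 126 ± 20.9 CPM in Nanog-bearing embryos (log2 fold change -1.17 ± 0.34, unadjusted p = 0.00674, adjusted p = 0.931). Perp averaged 116 ± 85.7 CPM in null and 45.5 ± 15.3 CPM in Nanog-bearing embryos (unadjusted p = 0.0319, adjusted p = 0.931), and Fn1 (fibronectin) 43.0 ± 22.7 and 134 ± 58.2 CPM in the same classes (unadjusted p = 0.0116, adjusted p = 0.931). Rab25, a small GTPase of apical recycling in epithelia, had 1 count over the 4 null embryos and 369 over the 4 Nanog-bearing embryos, a ratio of 305 for Nanog-bearing over null with a 95% counting interval of 54.3 to 12065 (unadjusted p = 0.00814, adjusted p = 0.931). The interval pools the embryos and leaves out the spread between them. Rab25 was low even in Nanog-bearing embryos, at 2.28 to 5.03 CPM, and null libraries lacked more genes. The part of that in the Rab25 values was not tested. Rab25 is the only gene of these adhesion lists among the 78 in the authors' deposited table, listed there as DOWN, and none of the 9 members is in that table. The table came with these data and gives the direction in Nanog-null embryos, so it is no independent support. Cdh11 averaged 21.4 ± 7.37 CPM in null and 31.1 ± 5.27 CPM in Nanog-bearing embryos (adjusted p = 0.998).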

How the data were processed

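RNA-seq counts per gene symbol were deposited by the authors for 22 libraries, not normalized, as whole numbers. TopHat 1.3.1, edgeR and the build mm9 are named, per the submitters' processing notes. The sources used here name no counting program and no strand setting, so reads of overlapping antisense genes cannot be told apart. In the authors' list of 78 genes the deposited direction column is a word, of the unit kind other, and 22 value columns without a stated unit were not used.

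The members and gene lists were chosen with earlier results of these data known. The fits covered all genes by edgeR 4.0.16 under R 4.3.3 (quasi-likelihood test, robust, TMM, filterByExpr, Benjamini-Hochberg, threshold 0.05). Embryos were fitted by genotype and sex, with Nanog-bearing as the equally weighted mean of heterozygous and wild type, and lines by lineage with the libraries of a line summed. Labels do not say that lines or embryos of a group are of separate origin, so p-values measure the spread between these samples. SE is the absolute log2 fold change over the square root of F. Embryos had a biological coefficient of variation of 0.979, lines one of 0.346. Levels per kilobase used exon unions of GENCODE vM21, for lengths only. Intervals cover counting error only. The fits were tested on simulated data. Alternatives were RLE and upper quartile scaling, DESeq2 1.42.0, limma 3.58.1 voom, no low-count filter, no sex term and leaving out each line or embryo. For lines, voom used the 14 libraries with line as a block, with or without a term for r1 against r2.

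Named are all members, Nanog, and from each list up to 3 called genes each way per line comparison by smallest p with more than 30 counts in at least 1 line, or in embryos up to 2 by smallest p. The text narrows these, after their values were seen, to genes of clear role. Ctnnb1, Cdh11 in lines and the markers Col1a1, Laptm5, Ptprc, Tyrobp, Fcer1g and Emr1 were added the same way. A few genes that the rule names are not reported here.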

Additional observations from a re-analysis of the deposited data

Results flagged for a closer look

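Single null embryos stood far from the other 3 nulls for 4 members, by Dixon's gap test. It flags about 1 in 20 groups by chance where values are normally spread, which counts near 0 are not. Cdh2 was 5.45 CPM in null M2, against 0 to 0.365 CPM in the other nulls. Cdh3 was 4.39 CPM in null F2, against 0 to 0.549 CPM in the others. Null M1 stood out for both Snai1, at 6.39 CPM, against 0 to 0.457 CPM in the others, and Zeb1, at 4.0 CPM, against 0 to 0.35 CPM. Each of these values lies within or below the range of the Nanog-bearing embryos. The heterozygous and wild-type groups have 2 embryos each, too few for this test. Single values stood apart among the 4 Nanog-bearing embryos too. Zeb1 was 6.5 CPM in the heterozygous male, against 0 to 0.031 CPM in the others. Vim was 4.94 CPM in the heterozygous female, against 0 to 0.508 CPM, and Cdh3 26.6 CPM in the wild-type female, against 3.79 to 7.52 CPM.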

How the results depend on the processing

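Each member's fold change was recomputed under every alternative. In the line comparisons 319 of 351 values kept direction and side of the threshold, 22 lost and 7 gained the call, and 3 turned direction, all 3 uncalled: leaving out lines, Cdh2 in ES over TS ranged from -0.27 to 1.14 and Zeb1 from -0.69 to 0.35. In the embryo comparisons 290 of 312 did, and 22 turned direction, none of them called. Ranges over left-out embryos were, for null over Nanog-bearing, -6.42 to 4.69 for Cdh2 and -0.27 to 3.42 for Vim (-0.23 with no sex term). For null over wild type they were -7.97 to 1.89 for Cdh2 and -4.83 to 0.90 for Snai1 (0.079 without null F1 and M2, which was added after seeing the data). For heterozygous over wild type they were -0.48 to 0.31 for Cdh1, -9.24 to 6.01 for Cdh2 (-0.31 by limma voom, -3.22 without null F1 and M2), -2.09 to 0.090 for Cdh3, -0.18 to 0.83 for Epcam, -1.16 to 7.99 for Vim and -1.49 to 4.43 for Snai1. The cause was not tested. Members called over left-out lines numbered 3 to 6 for ES against TS and 6 to 8 in both comparisons with XEN lines.

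Genes called among all, 2 for null against Nanog-bearing embryos, were 1 with upper quartile scaling, 87 by DESeq2, 50 without the filter, 1 without null F1 and M2, and 1 to 2 over left-out embryos. Null against wild type gave 96, 37, 1 and 1 to 3 for the last 4, and heterozygous against wild type 76 by DESeq2 and 4 without the filter. Over left-out lines ES against TS gave 2429 to 6233 and ES against XEN 3997 to 7646, where fewer lines are fitted. The labels r1 and r2 do not pair the lines (21 pairs, correlation of deviations -0.36 to 0.15). Limma voom with line as a block and a term for r1 against r2 gave 6469 genes and 5 members for ES against TS. It gave 6841 and 5948 genes with 8 members each for ES and TS against XEN. Scaling moved the median of all genes by over 0.1 only with upper quartile scaling, to 0.28 for ES over XEN and 0.20 for TS over XEN. Counts under 30 limit Snai2 everywhere, Cdh2 and Cdh3 in XEN lines and Zeb2 in ES lines, TS F1 and TS M3, and the spread between embryos limits the embryo comparisons.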
